A study of Homo sapiens with 39 samples.

Results

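C4-2B cells were treated with olaparib at 1 µM or with its vehicle, DMSO, for 5 days, and the RNA of 3 libraries per treatment (A, B and C) was sequenced. These 6 libraries are described here across all genes, out of 39 libraries in the series. C4-2B is an established cell line of castration-resistant prostate cancer (CRPC) derived from LNCaP, and all cells grew in RPMI medium with serum. The panel of treatments to which the 6 libraries belong holds 21 libraries in 7 groups of 3, all harvested on day 5. Of its other groups, talazoparib at 10 nM, abiraterone at 5 µM and abiraterone 5 µM with olaparib 1 µM are used below for comparison. A separate time course of 18 libraries in 6 groups includes olaparib at 1 µM and DMSO at day 5, again with 3 libraries each. All groups come from the same cell line, so the values describe 1 genetic background.

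Olaparib is an inhibitor of PARP1 and PARP2, enzymes that bind broken DNA and mark it with poly(ADP-ribose) chains. Cells in which PARP is inhibited or held on DNA carry single-strand lesions into S phase, where forks that meet them need homologous recombination. Checkpoint kinases respond to such damage, and the p53 target genes, CDKN1A among them, include those that stop the cycle or start apoptosis. In prostate cancer cells androgens maintain a lineage programme of secreted proteases and metabolic enzymes. The comparison asks how a PARP inhibitor (PARPi) alone changes the transcriptome of these cells, before it is paired with an inhibitor of the androgen pathway (ARPi).

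The DMSO libraries held 29707578 to 39905703 counts and the olaparib libraries 36348316 to 39550494. Mitochondrially encoded genes took 9.68 to 10.1% of the counts under DMSO and 12.3 to 12.4% under olaparib, without overlap. The luminal prostate marker list was present with all 13 genes, at a summed 5830 to 6100 CPM under DMSO and 6350 to 6540 CPM under olaparib. COL1A2, DCN and DPT of 10 fibroblast markers, CD3D, CD3E, MS4A1, CD163 and TYROBP of 12 immune markers, KDR and CLDN5 of 8 endothelial markers and KRT6A of 10 basal and other epithelial markers had a count of 0 in all 6 libraries. Immune markers summed to 5.04 to 7.67 CPM under DMSO and 14.9 to 16.1 CPM under olaparib, of which CD68, a protein of lysosomes, was 92.5% of the counts. Fibroblast markers summed to 11.9 to 16 against 16.3 to 17.7 CPM (COL1A1 86.7% of the counts), endothelial markers to 14.5 to 16.7 against 13.2 to 14.4 CPM (VWF 96%), and basal and other epithelial markers to 1.72 to 2.79 against 2.45 to 3.84 CPM. The part of other cells in the results below was not tested. Olaparib acts on the PARP proteins, so no transcript checks the treatment labels directly.

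Of 63187 genes in the table, 18625 had enough counts to be tested. Olaparib changed 6638 of them at an adjusted p under 0.05, which is 35.6% of the genes tested. The changed genes split into 3655 that rose (19.6%) and 2983 that fell (16%). Scaling by total counts alone gave 2885 higher and 3829 lower. A fit of the 6 libraries alone gave 3127 and 3110, a CPM filter 3338 and 3275, and leaving out olaparib library A 2931 and 2891. The balance of the 2 directions thus depends on the scaling, the filter and the libraries used. Most changes were small, with a median absolute log2 fold change of 0.272 among called genes. A rise of at least 1 on the log2 scale was called for 397 genes and a fall of that size for 105. At a bound of 2, these counts were 87 and 19. CPM values did not overlap between the olaparib and the DMSO libraries in 6275 of the called genes, and in 8375 (45%) of all genes tested.

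The share of genes called and the size of their changes varied with abundance. With the genes in 4 equal bins of mean abundance, 9.94% of the lowest bin were called, with a median absolute log2 fold change of 1.29 among them, and 58.8% of the highest bin, with a median of 0.183. Protein-coding genes accounted for 6113 of the calls, out of 13995 tested, and long non-coding RNAs for 438 out of 3565. Among protein-coding genes, the share that rose was 26.3% in the bin with the shortest gene spans of 4 (up to 13.3 kb) and 20.4% in the bin with the longest (over 81.3 kb). The share that fell was 13.8% and 22.1% in the same bins, so long genes were called lower more often and higher less often, as a description across genes.

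**Figure D1:**
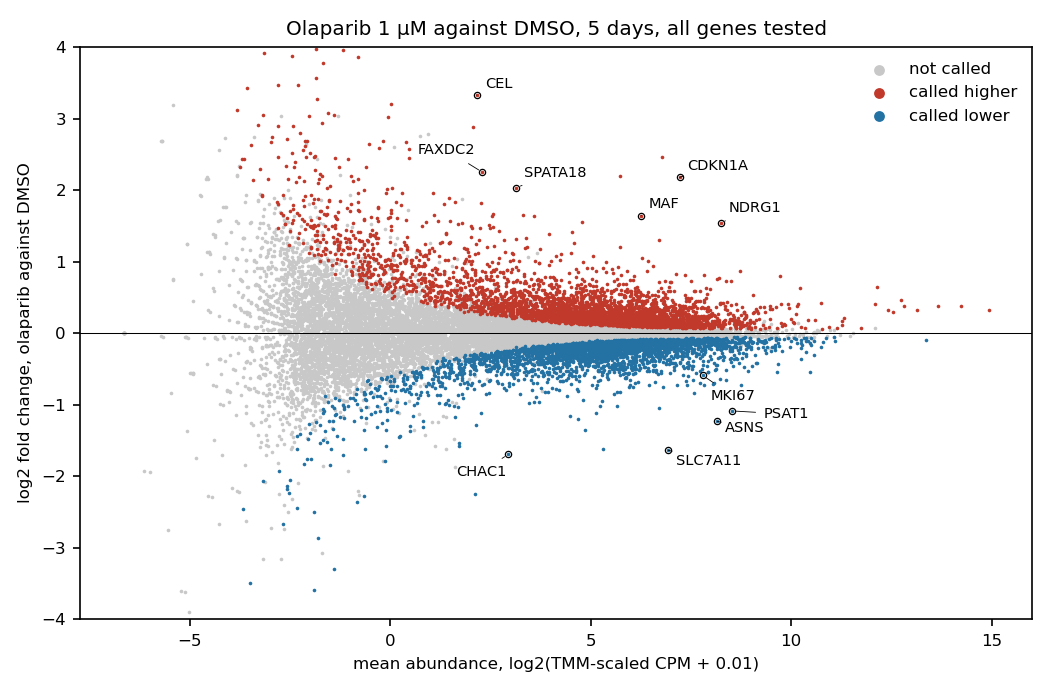
Log2 fold change of olaparib against DMSO (y axis) by mean abundance over the 6 libraries on a log2 CPM scale with 0.01 added (x axis) for the genes tested, with called rises in red, called falls in blue and the rest in grey. The circled genes include CDKN1A at 2.18 and SLC7A11 at -1.64, small changes are called only at high abundance, and 57 genes beyond 4 in either direction are not drawn.

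Rises were ranked among called protein-coding genes whose treatments did not overlap and whose higher group averaged at least 100 counts. The 12 largest were those of genes with varied functions. CEL, a bile salt-stimulated lipase (chr9:133061981-133071861, GRCh38), stood at 0.849, 0.902 and 0.684 CPM under DMSO and 8.29, 8.47 and 7.56 CPM under olaparib (log2 fold change 3.33 ± 0.13 SE, adjusted p = 3.42e-20). The olaparib libraries thus held several times the level of every DMSO library. CDKN1A, which encodes the CDK inhibitor p21 (chr6:36676460-36687337), stood at 58.2, 57.3 and 46.8 CPM under DMSO and 239, 238 and 256 CPM under olaparib (log2 fold change 2.18 ± 0.053 SE, adjusted p = 7.76e-17). FAXDC2, a fatty acid hydroxylase family member, went from 1.29, 1.80 and 1.95 CPM to 7.71, 7.68 and 9.02 CPM (log2 fold change 2.25 ± 0.16 SE, adjusted p = 4.73e-11). SPATA18, a p53 target that acts at mitochondria, went from 3.29, 3.61 and 3.52 CPM to 14, 14.1 and 14.8 CPM (log2 fold change 2.04 ± 0.087 SE, adjusted p = 2.76e-19). None of these genes overlapped between the treatments, which this rule required, as it did for the 12 largest falls below. MAF, a bZIP transcription factor, read 39.6, 37.3 and 34.9 CPM under DMSO and 124, 114 and 109.7 CPM under olaparib (log2 fold change 1.64). The other 7 genes of the 12 largest rises had log2 fold changes between 1.65 and 1.96. They were SERPIND1 (heparin cofactor II), LIF (an IL-6 family cytokine), GPNMB (a glycoprotein of lysosomes and melanosomes), HHIPL2, FRMPD2, ESPN (an actin-bundling protein) and TRIM49D1. TRIM49D1 has near-identical copies and is uncertain, with 0.815, 1.28 and 1.39 CPM under DMSO and 4.69, 5.53 and 2.83 CPM under olaparib.

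Ranked by the same rule, the largest falls were led by genes of the amino acid response. CHAC1, which breaks down glutathione (chr15:40952962-40956512), stood at 12.2, 12.4 and 10.8 CPM under DMSO and 3.79, 3.84 and 3.24 CPM under olaparib (log2 fold change -1.70 ± 0.12 SE, adjusted p = 2.46e-13). SLC7A11, the cystine transporter xCT (chr4:138164097-138242349), stood at 190.4, 190.0 and 176 CPM under DMSO and 61, 61.4 and 56.1 CPM under olaparib (log2 fold change -1.64 ± 0.071 SE, adjusted p = 1.59e-11). ASNS, asparagine synthetase, stood at 438, 402 and 366 CPM under DMSO and 178, 166 and 167 CPM under olaparib (log2 fold change -1.24 ± 0.063 SE, adjusted p = 2.32e-10). For these 3 genes every olaparib library lay far below every DMSO library. NIBAN1, a stress-induced protein, went from 67.8, 63.3 and 49.7 CPM to 20.4, 20.1 and 18.1 CPM (log2 fold change -1.62). BCAT1, a branched-chain amino acid transaminase, went from 44.2, 42.8 and 39.5 CPM to 17.4, 16.7 and 14.9 CPM (log2 fold change -1.36). SLC1A4, a neutral amino acid transporter, went from 31.6, 31.6 and 29.7 CPM to 13.5, 13.7 and 14.2 CPM (log2 fold change -1.17). The remaining genes of the 12 largest falls were RNF152, CA8, SLC2A13, BEST1, PNLIPRP3 and RILPL2, with log2 fold changes between -1.57 and -1.11. BEST1 had the smallest gap of the 12, at 5.60, 3.84 and 3.32 CPM under DMSO and 1.90, 1.67 and 2.03 CPM under olaparib (adjusted p = 0.000417).

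Most genes of the p53 target list rose. Of 50 members tested, 42 rose and 2 fell, and the median log2 fold change was 0.52 against 0.02 over all genes tested. The members rose by very different amounts. PHLDA3, a repressor of AKT signalling, stood at 6.42, 5.88 and 5.37 CPM under DMSO and 18.1, 17.2 and 19.2 CPM under olaparib (log2 fold change 1.63 ± 0.081 SE, adjusted p = 1.32e-17). BTG2, an antiproliferative factor, stood at 15.6, 14.7 and 12.5 CPM under DMSO and 44.2, 39.7 and 40.2 CPM under olaparib (log2 fold change 1.55 ± 0.08 SE, adjusted p = 2.19e-12). MDM2, an E3 ubiquitin ligase, stood at 178, 179.9 and 180.4 CPM under DMSO and 239, 245 and 249.6 CPM under olaparib (log2 fold change 0.45 ± 0.029 SE, adjusted p = 1.64e-14). The MDM2 groups were tight and far apart relative to their spread, although the rise was small. RPS27L, a ribosomal protein paralogue induced by p53, read 67.1, 66 and 61.8 CPM under DMSO and 127, 121 and 124 CPM under olaparib (log2 fold change 0.94). The members that fell were PMAIP1, the BH3-only protein NOXA, and TP53I11, and the members not called were SESN2, TNFRSF10A, EDA2R, CD82, APAF1 and ABCA12. PMAIP1 went from 9.44, 9.63 and 9.09 CPM to 4.98, 5.37 and 5.96 CPM (log2 fold change -0.79 ± 0.1 SE, adjusted p = 1.34e-07).

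Among 14 genes of the BCL2 family tested, which set the threshold for apoptosis at mitochondria, 9 rose and 3 fell. BBC3, the BH3-only protein PUMA, stood at 1.83, 1.63 and 1.47 CPM under DMSO and 4.24, 3.53 and 3.98 CPM under olaparib (log2 fold change 1.26 ± 0.16 SE, adjusted p = 7.2e-08). BAX, a pore-forming effector, stood at 16.5, 15.7 and 16.6 CPM under DMSO and 25.1, 22.4 and 24.3 CPM under olaparib (log2 fold change 0.56 ± 0.058 SE, adjusted p = 1.29e-09). Both are also counted in the p53 list, and neither overlapped between the treatments. PMAIP1, BCL2 and BCL2L2 were the members that fell.

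Genes of mitosis and the G2/M phase were lower as a group. All 76 members were tested, 75 fell and none rose, with CDC25A the member not called. The median log2 fold change was -0.48 and the range -0.754 to -0.143. In bulk RNA, fewer cells in G2 and mitosis and less of these transcripts per cell cannot be told apart. Promoters of this list are known for the cell cycle homology region (CHR), TTTGAA or TTTAAA, which is read by the DREAM and MMB complexes. The next lines give, from RefSeq on GRCh38.p14, the 200 bases before the annotated start of 3 genes of the list with large falls, 5′ to 3′ on the gene's strand, with CHR matches on either strand in capitals.
CKAP2L: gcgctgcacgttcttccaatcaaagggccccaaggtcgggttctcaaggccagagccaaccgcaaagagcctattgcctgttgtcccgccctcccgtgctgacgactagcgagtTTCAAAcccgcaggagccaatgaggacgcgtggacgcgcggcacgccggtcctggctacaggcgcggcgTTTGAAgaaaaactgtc
CENPF: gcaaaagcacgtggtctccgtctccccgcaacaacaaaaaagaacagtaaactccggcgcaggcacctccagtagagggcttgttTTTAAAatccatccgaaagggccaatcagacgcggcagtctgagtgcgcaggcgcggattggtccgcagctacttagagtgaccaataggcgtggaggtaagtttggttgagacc
KIF14: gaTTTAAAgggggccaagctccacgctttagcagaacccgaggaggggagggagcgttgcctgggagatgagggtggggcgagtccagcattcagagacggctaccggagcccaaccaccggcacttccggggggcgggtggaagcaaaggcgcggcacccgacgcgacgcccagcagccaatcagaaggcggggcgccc

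These windows are chr2:112764610-112764809 (minus strand) for CKAP2L, chr1:214602995-214603194 (plus strand) for CENPF and chr1:200620752-200620951 (minus strand) for KIF14. The matches begin 86 and 17 bases before the start in CKAP2L, 115 bases before it in CENPF and 198 bases before it in KIF14. Over windows from 250 bases before to 50 after the start, on either strand, TTTGAA or TTTAAA occurred in 49 of 63 promoters of the mitosis list that had an entry and in 24.3% of 27305 promoters. TTTGAA alone occurred in 42 of the 63 and in 15.4% of all promoters, and TTTAAA alone in 17 and in 12.3%. CCAAT, the letters bound by NF-Y, occurred in 45 of the 63 and in 35.7% of all promoters. The other lists searched also held it above that share, from 39% (homologous recombination) to 56% (replication). Of 7 lists searched, TTTGAA was in 3 of 50 replication promoters and in 3 of 40 p53 target promoters. A match is a description of these letters and not of binding.

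CKAP2L, a spindle protein, stood at 42, 43.5 and 47.5 CPM under DMSO and 26.4, 27.4 and 27.2 CPM under olaparib (log2 fold change -0.72 ± 0.052 SE, adjusted p = 2.38e-13). CENPF, a kinetochore protein, stood at 246, 265 and 279.6 CPM under DMSO and 167, 160.2 and 162 CPM under olaparib (log2 fold change -0.69 ± 0.045 SE, adjusted p = 8.14e-11). KIF14, a kinesin of cytokinesis, stood at 42.8, 45.5 and 46.1 CPM under DMSO and 28.4, 27.2 and 29.3 CPM under olaparib (log2 fold change -0.67). All 3 lay lower in every olaparib library than in any DMSO library. KNL1, a kinetochore scaffold, had the largest change of the list, at 76.5, 84.5 and 88.8 CPM under DMSO and 49.3, 51.4 and 47.7 CPM under olaparib (log2 fold change -0.75). CENPE, a kinetochore motor, read 115, 122 and 125 CPM under DMSO and 72.7, 77.8 and 75.5 CPM under olaparib (log2 fold change -0.69). CCNB1, cyclin B1, stood at 198, 203 and 204 CPM under DMSO and 144, 147 and 152 CPM under olaparib (log2 fold change -0.45 ± 0.029 SE, adjusted p = 8.23e-15). The groups did not overlap, and the falls were shallow beside those of CHAC1 and SLC7A11. MKI67, the proliferation antigen Ki-67, varied more under DMSO, at 227, 272 and 301 CPM under DMSO and 174, 176 and 181 CPM under olaparib (log2 fold change -0.59 ± 0.092 SE, adjusted p = 0.000113). TOP2A, which untangles chromosomes, read 213, 217 and 226 CPM under DMSO and 156, 156 and 165 CPM under olaparib (log2 fold change -0.46).

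Replication and S phase genes fell as well, 50 of 59 tested, with a median log2 fold change of -0.33. CCNE1, cyclin E1, was the member that rose, at a log2 fold change of 0.27. The windows below are the 200 bases before the start of POLA1 (chrX:24693718-24693917, plus strand) and GINS2 (chr16:85688955-85689154, minus strand), from RefSeq on GRCh38.p14, with the 8-letter E2F forms TTTCCCGC, TTTCGCGC, TTTGCCGC and TTTGGCGC on either strand in capitals. They are shown because E2F factors are known to drive this list.
POLA1: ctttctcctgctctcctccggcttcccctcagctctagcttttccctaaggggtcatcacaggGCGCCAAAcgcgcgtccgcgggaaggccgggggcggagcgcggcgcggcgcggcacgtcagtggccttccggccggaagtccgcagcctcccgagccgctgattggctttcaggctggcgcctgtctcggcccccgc
GINS2: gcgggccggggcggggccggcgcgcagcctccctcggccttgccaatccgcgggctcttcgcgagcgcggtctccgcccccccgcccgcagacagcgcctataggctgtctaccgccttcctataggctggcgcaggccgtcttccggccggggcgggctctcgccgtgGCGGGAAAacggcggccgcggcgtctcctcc

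The match in POLA1 begins 137 bases before the start and the match in GINS2 31 bases before it. One of the 4 forms occurred in 22 of 50 promoters of the replication list, in 7 of 41 promoters of the homologous recombination list and in 3.33% of all promoters. The p53 target list held 5 in 40. POLA1, the catalytic subunit of DNA polymerase alpha, stood at 55.5, 64.9 and 65.8 CPM under DMSO and 44.4, 44.7 and 45 CPM under olaparib (log2 fold change -0.48 ± 0.055 SE, adjusted p = 6.3e-08). GINS2, a subunit of the replicative helicase, stood at 22.8, 21.2 and 25.6 CPM under DMSO and 18.1, 17.5 and 19.3 CPM under olaparib (log2 fold change -0.35). CDC45, another helicase subunit, stood at 43.1, 47.3 and 49.8 CPM under DMSO and 32.4, 30.1 and 31.2 CPM under olaparib (log2 fold change -0.58 ± 0.066 SE, adjusted p = 9.06e-08). None of these overlapped between the treatments. CCNA2, cyclin A2, read 62.8, 70.2 and 69 CPM under DMSO and 45.6, 44.4 and 45.7 CPM under olaparib (log2 fold change -0.58), and E2F8, a repressor of the E2F family, had a log2 fold change of -0.55.

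Of 21 D cyclins, CDK4/6 and CDK inhibitor genes tested, 4 rose and 10 fell, with CDKN1A the largest rise. CDKN2C, the CDK4/6 inhibitor p18, moved the other way, at 24.2, 21.9 and 23.9 CPM under DMSO and 14.2, 13.8 and 16.1 CPM under olaparib (log2 fold change -0.67 ± 0.067 SE, adjusted p = 4.62e-10). E2F7, a repressor induced by p53, read 27, 31.7 and 35 CPM under DMSO and 21, 19.6 and 21.6 CPM under olaparib (log2 fold change -0.60).

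In the homologous recombination and Fanconi anemia list, whose members repair breaks and crosslinks, 30 of 48 fell and 1 rose, with a median log2 fold change of -0.27. BRCA2, a mediator of homologous recombination (chr13:32315086-32400268), stood at 76.3, 91.4 and 102 CPM under DMSO and 55.6, 57.5 and 54.9 CPM under olaparib (log2 fold change -0.69 ± 0.11 SE, adjusted p = 9.68e-05). BRCA1, which promotes end resection, stood at 71.8, 80.3 and 82.8 CPM under DMSO and 58.9, 64.9 and 62.5 CPM under olaparib (log2 fold change -0.34 ± 0.052 SE, adjusted p = 8.51e-06). Both fell in every olaparib library below every DMSO library. BLM, a helicase of recombination intermediates, went from 18, 18.4 and 19.7 CPM to 12.1, 12 and 12.1 CPM (log2 fold change -0.64). UBE2T and FANCD2 of the Fanconi pathway had log2 fold changes of -0.50 and -0.50. PALB2, the partner of BRCA2, read 22.9, 22.8 and 22.6 CPM under DMSO and 22.8, 22.6 and 22.4 CPM under olaparib, with log2 fold change -0.01 and adjusted p = 0.882, and its libraries overlapped.

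Checkpoint kinases and adaptors fell in 14 of 22 members and rose in none. The apical kinases were not called. ATM read 50.8, 59.7 and 58.5 CPM under DMSO and 52.1, 54 and 49.1 CPM under olaparib (adjusted p = 0.0957) and ATR read 86.5, 93.9 and 102 CPM under DMSO and 88, 93.9 and 92.4 CPM under olaparib (adjusted p = 0.476). Their effector kinases were called lower. CHEK1 stood at 48.8, 54.1 and 59.3 CPM under DMSO and 41.2, 43.6 and 47 CPM under olaparib (log2 fold change -0.31 ± 0.061 SE, adjusted p = 0.000312) and CHEK2 had a log2 fold change of -0.41. TOPBP1, an activator of ATR, had a log2 fold change of -0.31, and H2AX, the histone marked at breaks, of -0.38. ATM gained a call in 4 of the other settings, among them the total count scaling (adjusted p = 0.0256).

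The targets of the drug changed little at the RNA level. In the PARP family and PAR turnover list 5 of 23 members rose and 7 fell. PARP1 (chr1:226360210-226408154) read 568, 576 and 579.6 CPM under DMSO and 556, 556 and 554 CPM under olaparib (log2 fold change -0.05 ± 0.021 SE, adjusted p = 0.0707), which was not called. PARP2 stood at 35.2, 37 and 36.3 CPM under DMSO and 28.8, 31 and 29.7 CPM under olaparib (log2 fold change -0.28 ± 0.049 SE, adjusted p = 1.7e-05) and was called lower. PARG, which removes poly(ADP-ribose), read 66.9, 70.9 and 66.3 CPM under DMSO and 68.2, 69.7 and 67.9 CPM under olaparib (adjusted p = 0.835), with overlapping libraries. PARP1 was called lower under 6 other settings, with adjusted p = 0.00047 under total count scaling. Among the other members, PARP10, an interferon-linked member, rose from 15, 14 and 13.9 CPM to 19.5, 20.0 and 20.0 CPM (log2 fold change 0.47). PARP3 rose with a log2 fold change of 0.31 and PARP8 fell with one of -0.37.

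The ATF4 amino acid response was the list with the lowest median. ATF4 is a transcription factor whose translation rises under amino acid or endoplasmic reticulum stress, and its targets take up and make amino acids. Of 36 members 30 fell and none rose, with a median log2 fold change of -0.61. The members not called were DDIT4, SLC38A2, SESN2, CBS, VLDLR and ALDH18A1. The next lines show 30 bases around the amino acid response element TGATGNAA, on either strand and in capitals, before the start of ASNS and of the tRNA synthetase genes IARS1 and AARS1, from RefSeq on GRCh38.p14. All 30 bases of each stretch lie in untranslated or coding sequence of at least 1 transcript annotated in GENCODE, so they are upstream of the RefSeq start but not of every annotated one.
ASNS: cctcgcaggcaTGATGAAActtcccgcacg
IARS1: cccgcattttcagcgcgTTGCATCAcctcc
AARS1: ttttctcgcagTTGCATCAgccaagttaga

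The stretches lie at chr7:97872458-97872487 for ASNS, chr9:92293698-92293727 for IARS1 and chr16:70289675-70289704 for AARS1, all on the minus strand, and their matches begin 68, 13 and 187 bases before the start. TGATGNAA occurred in 5 of 29 promoters of the ATF4 list, in 7 of 30 of the tRNA synthetase list and in 3.67% of all promoters. It was in 1 of 40 p53 target promoters and in none of 50 replication promoters.

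ATF4 itself stood at 551, 520.1 and 531 CPM under DMSO and 323, 324 and 326 CPM under olaparib (log2 fold change -0.72 ± 0.028 SE, adjusted p = 2.33e-20). PSAT1, which makes serine, stood at 543, 494 and 464 CPM under DMSO and 231, 235 and 240.1 CPM under olaparib (log2 fold change -1.09 ± 0.046 SE, adjusted p = 9.04e-13). Both groups were far apart and, in the olaparib libraries, close together. DDIT3, the stress factor CHOP, read 15.9, 13.1 and 13.3 CPM under DMSO and 9.93, 11.7 and 11.6 CPM under olaparib (log2 fold change -0.35), a smaller fall. Of the unfolded protein response and ER chaperone list 6 of 33 rose and 9 fell. XBP1, its transcription factor, read 206, 193 and 194 CPM under DMSO and 143, 141 and 142 CPM under olaparib (log2 fold change -0.47).

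Aminoacyl-tRNA synthetases, which charge tRNAs with amino acids, were split, with 16 of 37 lower and 5 higher. The largest falls were in cytosolic enzymes. CARS1 (cysteine) stood at 116, 111 and 102 CPM under DMSO and 66.2, 66.1 and 66.4 CPM under olaparib (log2 fold change -0.72 ± 0.041 SE, adjusted p = 6.08e-16). GARS1 (glycine) stood at 343, 337 and 316 CPM under DMSO and 205, 202 and 201 CPM under olaparib (log2 fold change -0.71 ± 0.032 SE, adjusted p = 1.86e-18). MARS1 (methionine) and SARS1 (serine) had log2 fold changes of -0.51 and -0.47. IARS1 (isoleucine) read 674, 647 and 644 CPM under DMSO and 491, 494 and 489 CPM under olaparib (log2 fold change -0.41). AARS1 (alanine) read 420.3, 398 and 389 CPM under DMSO and 317, 316 and 319 CPM under olaparib (log2 fold change -0.34). These genes shared tight groups with no overlap.

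Androgen response genes were higher more often than lower. Of 118 tested, 67 rose and 17 fell, with a median log2 fold change of 0.14. KLK3, which encodes PSA, stood at 1507, 1409 and 1434 CPM under DMSO and 1652, 1649 and 1612 CPM under olaparib (log2 fold change 0.18 ± 0.044 SE, adjusted p = 0.00439). TMPRSS2, a membrane protease, stood at 283, 249.6 and 219 CPM under DMSO and 433, 417 and 391 CPM under olaparib (log2 fold change 0.73 ± 0.073 SE, adjusted p = 9.85e-07). FKBP5, a co-chaperone of steroid receptors, stood at 826, 838 and 857 CPM under DMSO and 1112, 1127 and 1095 CPM under olaparib (log2 fold change 0.40 ± 0.025 SE, adjusted p = 6.99e-15). All 3 were higher in every olaparib library than in any DMSO library. NDRG1, which also responds to hypoxia, read 178, 152 and 138 CPM under DMSO and 494, 447 and 419 CPM under olaparib (log2 fold change 1.54 ± 0.087 SE, adjusted p = 1.38e-09). ADAM7 and ORM1 rose with log2 fold changes of 1.07 and 1.27, at 46.9, 45.9 and 42.5 CPM and 4.05, 4.55 and 3.27 CPM under olaparib. INSIG1, which holds back cholesterol synthesis, fell from 416, 410.3 and 412 CPM to 315, 311 and 309 CPM (log2 fold change -0.41). The half-site AGAACA was in 5 of 95 androgen response promoters and in 14.9% of all promoters, a lower share than the background. The other lists searched were also below the background, from 6.35% (mitosis) to 13.3% (tRNA synthetases).

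Of the 18 prostate lineage factors tested, 4 rose and 6 fell. The largest fall was in ETV4, an ETS family transcription factor of low abundance, at 1.49, 1.77 and 0.912 CPM under DMSO and 0.448, 0.423 and 0.515 CPM under olaparib (log2 fold change -1.58 ± 0.33 SE, adjusted p = 0.000348). NCOR1, a nuclear receptor corepressor, and SPDEF, an epithelial ETS factor, fell by smaller amounts, with log2 fold changes of -0.18 and -0.15. The libraries of the treatments did not overlap for these 3 genes. SOX9, a factor of progenitor cells, stood at 4.31, 3.78 and 3.62 CPM under DMSO and 8.32, 7.85 and 7.05 CPM under olaparib (log2 fold change 0.99 ± 0.12 SE, adjusted p = 1.28e-08). Steroid metabolism genes rose in 9 of 20 and fell in 1. UGT2B28 and UGT2B11, which inactivate androgens by glucuronidation, had log2 fold changes of 0.47 and 0.44. These UGT2B genes are close paralogues, so reads may be split between them.

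Interferon and DNA sensing genes rose in 19 of 47 and fell in 5. STING1, the adaptor of cytosolic DNA sensing, stood at 2.92, 2.79 and 2.56 CPM under DMSO and 5.55, 5.48 and 5.50 CPM under olaparib (log2 fold change 1.00 ± 0.12 SE, adjusted p = 1.6e-08). LGALS3BP, a secreted interferon-induced protein, had a log2 fold change of 0.71. Antigen presentation genes rose in 10 of 22 and fell in 1, a count that was 6 without olaparib library A. B2M, the light chain of MHC class I, stood at 205, 194 and 189.5 CPM under DMSO and 274, 279.8 and 270.2 CPM under olaparib (log2 fold change 0.49 ± 0.033 SE, adjusted p = 6.1e-14). HLA-B read 16, 16.1 and 14.2 CPM under DMSO and 21.1, 21.8 and 18.4 CPM under olaparib (log2 fold change 0.41), and HLA-DMA, a class II chaperone, had a log2 fold change of 0.88. The MHC and sensing genes named here did not overlap between the treatments. NF-kB targets and secreted inflammatory factors rose in 11 of 26 and fell in 2. NFKB2, a subunit of the non-canonical pathway, stood at 37.5, 36.4 and 34 CPM under DMSO and 58.8, 59.2 and 60.1 CPM under olaparib (log2 fold change 0.73 ± 0.049 SE, adjusted p = 3.37e-14). IL32, an inflammatory cytokine, went from 1.19, 1.11 and 1.14 CPM to 3.13, 3.73 and 3.29 CPM (log2 fold change 1.56). BIRC3, an inhibitor of apoptosis, had a log2 fold change of 0.58. Immediate early and AP-1 genes rose in 13 of 27 and fell in none, including FOSL2 (log2 fold change 1.11) and JUNB (0.48).

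Lysosomal, fatty acid oxidation and glycolysis genes were higher more often than lower. Lysosomal genes rose in 37 of 57 and fell in 2. NPC1, which exports cholesterol from lysosomes, stood at 93.7, 97.3 and 99.2 CPM under DMSO and 154, 162 and 160.4 CPM under olaparib (log2 fold change 0.71 ± 0.033 SE, adjusted p = 1.31e-18). GALNS, a sulfatase, and CTSO, a cathepsin, had log2 fold changes of 0.84 and 0.69. Fatty acid oxidation genes rose in 21 of 36 and fell in 2. ACOX2, a peroxisomal oxidase, had a log2 fold change of 0.75, and ACADVL, the very long-chain dehydrogenase of mitochondria, read 290.3, 255 and 268 CPM under DMSO and 352, 374 and 363 CPM under olaparib. Glycolysis, glucose transport and hypoxia genes rose in 25 of 42 and fell in none. CA12, a carbonic anhydrase, stood at 12.3, 12.5 and 13.4 CPM under DMSO and 19, 21.7 and 18.9 CPM under olaparib (log2 fold change 0.63 ± 0.058 SE, adjusted p = 7.03e-11). SLC2A12, a glucose transporter, had a log2 fold change of 0.98. ALDOC, aldolase C, spread widely within each group, at 59.6, 49.3 and 41.1 CPM under DMSO and 97.5, 86.6 and 74.2 CPM under olaparib (adjusted p = 0.000151).

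Lipid synthesis was mixed. Cholesterol synthesis genes rose in 5 of 25 (20%, against 19.6% of all genes tested) and fell in 8 (32%, against 16%). Fatty acid synthesis and desaturation genes rose in 9 of 25 (36%) and fell in 4 (16%). Under total count scaling, 5 fatty acid synthesis and desaturation genes were called higher. TM7SF2, a sterol reductase, rose from 51.8, 51.2 and 46.2 CPM to 82, 82.5 and 83.8 CPM (log2 fold change 0.74). FDPS, farnesyl diphosphate synthase, fell from 113, 116 and 119 CPM to 93.8, 93.2 and 97.3 CPM (log2 fold change -0.29). ELOVL5, which elongates polyunsaturated fatty acids, read 943, 953 and 936 CPM under DMSO and 1471, 1474 and 1448 CPM under olaparib (log2 fold change 0.63 ± 0.023 SE, adjusted p = 6.2e-21).

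Drug-metabolising enzymes rose in 25 of 48 and fell in 2. CYP4F8, a fatty acid hydroxylase, went from 3.12, 2.77 and 3.47 CPM to 8.79, 8.81 and 8.68 CPM (log2 fold change 1.49). CYP2U1 stood at 43, 39.5 and 44 CPM under DMSO and 74.7, 79.7 and 77 CPM under olaparib (log2 fold change 0.87 ± 0.041 SE, adjusted p = 2.74e-18), and GSTA1, a glutathione transferase, had a log2 fold change of 0.77. NRF2 and glutathione genes were split, with 7 of 24 higher and 7 lower. FTL, the ferritin light chain, rose from 146, 138 and 125 CPM to 233, 223 and 220.3 CPM. NQO1, a quinone reductase, fell from 196, 200.1 and 196 CPM to 144, 144 and 159.6 CPM. These NRF2 targets moved in opposite directions, with log2 fold changes of 0.72 and -0.40.

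All 13 mitochondrially encoded mRNAs rose, with a median log2 fold change of 0.38. MT-ND5, a subunit of complex I, stood at 3651, 3698 and 3360.0 CPM under DMSO and 5537, 5625 and 5520.0 CPM under olaparib (log2 fold change 0.64 ± 0.051 SE, adjusted p = 7.36e-08). MT-CYB, of complex III, stood at 5878, 5972 and 5385 CPM under DMSO and 7798, 7903 and 7960.0 CPM under olaparib (log2 fold change 0.46). They share transcripts of 1 small genome, so they are not independent readings. The nuclear genes of oxidative phosphorylation did not move as a group, with 18 of 81 higher and 9 lower. NDUFV1, a nuclear subunit of complex I, had a log2 fold change of 0.26.

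Genes of RNA and protein synthesis and turnover were lower in part. Spliceosome genes fell in 49 of 86 and rose in 7. RBMX, a splicing regulator, and ALYREF, an adaptor of mRNA export, had log2 fold changes of -0.35 and -0.33. Proteasome genes fell in 20 of 41 and rose in 3. PSMC3, a base ATPase, read 158, 161 and 166 CPM under DMSO and 124, 134 and 132 CPM under olaparib (log2 fold change -0.32). PSME1 and PSME2, the interferon-inducible activator subunits, rose instead, with log2 fold changes of 0.31 and 0.47. MYC and ribosome biogenesis genes fell in 11 of 42 and rose in 6. MYC itself read 152, 137 and 128 CPM under DMSO and 181, 166 and 170.0 CPM under olaparib (log2 fold change 0.31 ± 0.059 SE, adjusted p = 0.000499). MXD1 and MXD4, which compete with MYC for MAX, rose with log2 fold changes of 0.61 and 0.51.

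Cytosolic ribosomal protein genes fell in 31 of 82 and rose in 5, by small amounts (median log2 fold change -0.05). RPL10 read 731, 728 and 703 CPM under DMSO and 627, 624 and 645 CPM under olaparib (log2 fold change -0.19) and RPS15 read 336, 329 and 332 CPM under DMSO and 296, 295 and 289.7 CPM under olaparib (log2 fold change -0.18). Both lay lower in every olaparib library than in any DMSO library. The count of falls was 60 under total count scaling, so it moves with the scaling.

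Histone genes rose in 17 of 43 and fell in 4. H2BC21, a replication-dependent gene that also gives polyadenylated mRNA, stood at 176, 163 and 159.9 CPM under DMSO and 284, 297 and 295 CPM under olaparib (log2 fold change 0.81 ± 0.03 SE, adjusted p = 1.46e-20), and H4C16 had a log2 fold change of 1.07. The libraries hold polyadenylated RNA, from which most replication-dependent histone mRNA is missing, so the list's level is not the level of histone mRNA.

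Matrix and adhesion genes rose in part. Collagens, laminins and integrins rose in 22 of 54 and fell in 6. COL6A1 stood at 108, 89.6 and 94.8 CPM under DMSO and 147, 156 and 155 CPM under olaparib (log2 fold change 0.65 ± 0.086 SE, adjusted p = 2.22e-05), and COL4A5, a basement membrane collagen, had a log2 fold change of 0.61. LAMA1, a laminin chain, had a log2 fold change of 0.91. Genes of the epithelial and mesenchymal state rose in 11 of 24 and fell in 5. VIM, vimentin, stood at 21.1, 18.8 and 15.3 CPM under DMSO and 36.2, 32.4 and 30.4 CPM under olaparib (log2 fold change 0.86 ± 0.084 SE, adjusted p = 3.73e-08). SNAI2, the repressor SLUG, read 12.3, 13.8 and 11.5 CPM under DMSO and 27.4, 24.7 and 24.4 CPM under olaparib (log2 fold change 1.03 ± 0.097 SE, adjusted p = 2.61e-10). THBS1, a matrix protein, read 11.7, 12.4 and 13.7 CPM under DMSO and 35, 34 and 31.7 CPM under olaparib (log2 fold change 1.41 ± 0.088 SE, adjusted p = 3.28e-13), and FN1, fibronectin, had a log2 fold change of 0.54. All of these were higher in every olaparib library than in any DMSO library. Of 8 neuroendocrine and neural lineage genes tested, 1 rose and 2 fell.

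**Figure D2:**
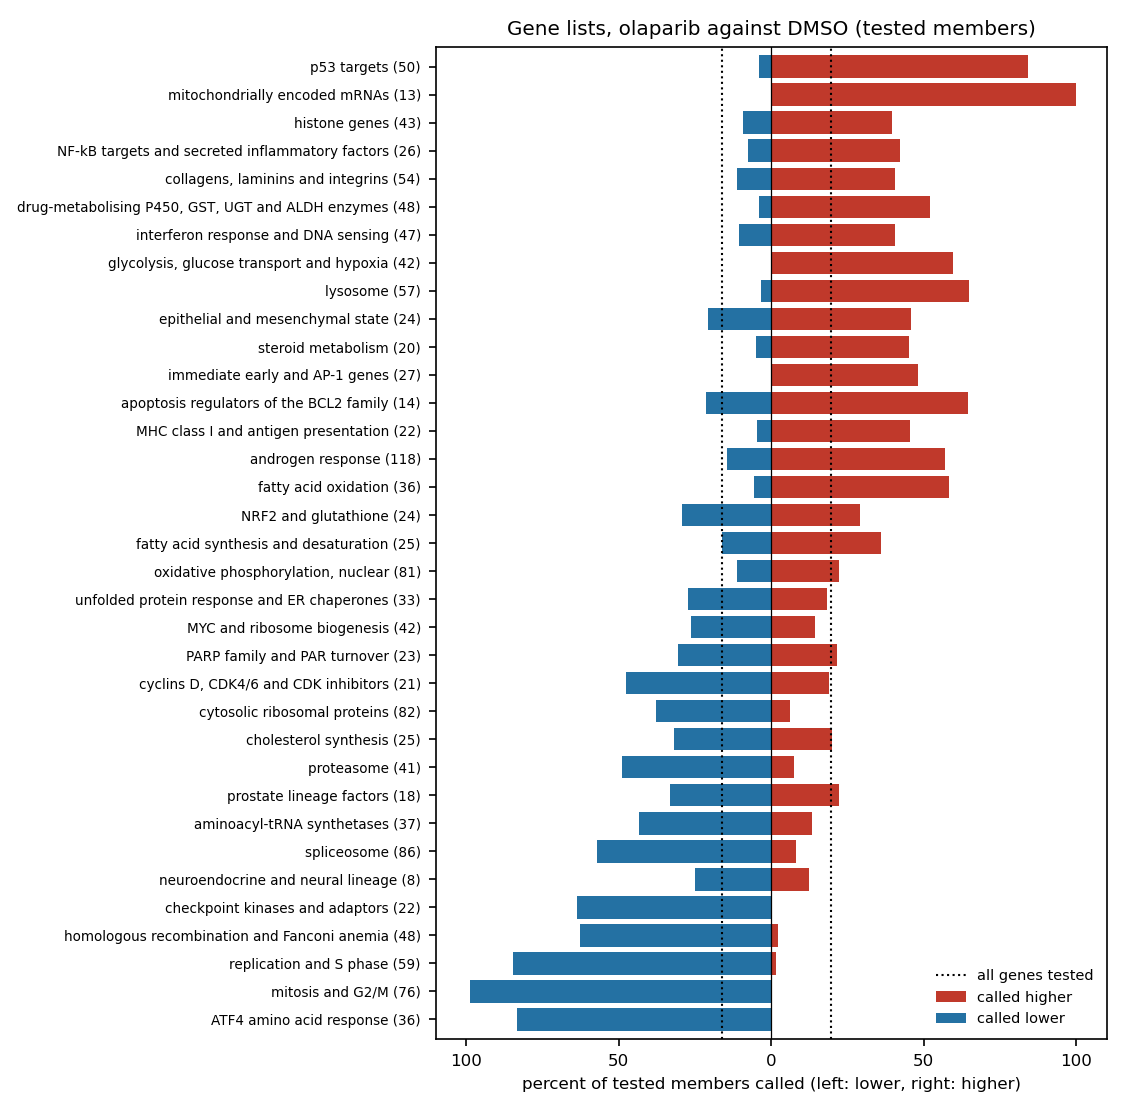
Percent of the tested members of each gene list that were called higher (red, right) or lower (blue, left), with the number tested in brackets and the lists ordered by median log2 fold change. Dotted lines mark the shares over all genes tested, 19.6% higher and 16% lower, and the bars of p53 targets and of mitosis and G2/M genes reach far past them in opposite directions.

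**Figure D3:**
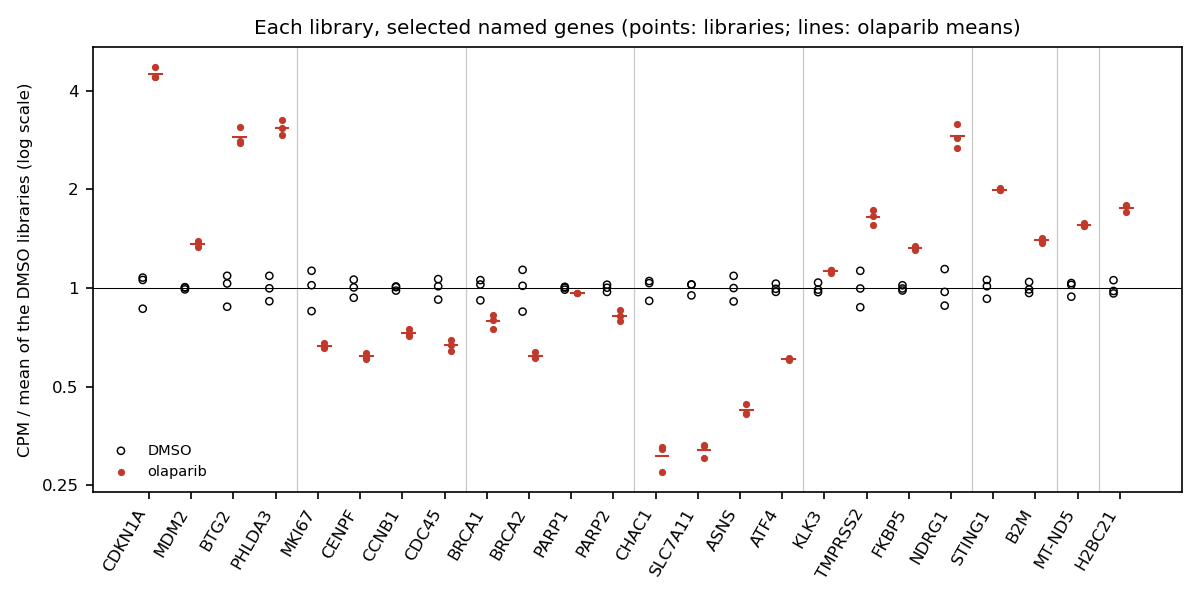
CPM of each library divided by the mean of the 3 DMSO libraries, on a log scale, for a selection of the genes named in the text, with open circles for DMSO, red points for olaparib and red lines at the olaparib mean. Of the genes drawn, CDKN1A lies highest and CHAC1 and SLC7A11 lowest, and PARP1 lies close to 1 in all 6 libraries.

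The time course repeated the same dose and time with its own DMSO libraries, so it shares no library with the panel. At day 5 it called 8566 of 18502 genes (46.3%), with 23.4% higher and 22.9% lower. Across the 17960 genes tested in both, the log2 fold changes had a Pearson r of 0.494 and a Spearman rho of 0.675, as a description across genes, which are not independent replicates. Of the 6603 panel calls tested there, 6388 (96.7%) had the same sign in the time course. Genes called in both in the same direction numbered 5408, which is 81.9% of the panel calls and 63.6% of the time course calls, and 18 were called in opposite directions. CDKN1A read 40.4, 42 and 41 CPM under DMSO and 224, 228 and 227 CPM under olaparib in the time course (log2 fold change 2.46). CHAC1 read 8.84, 9.75 and 9.16 CPM against 1.85, 2.38 and 1.95 CPM there (log2 fold change -2.16). The counts of the lists in the time course were 43 p53 targets higher and 3 lower, 76 mitosis genes lower, 57 replication genes lower, 31 ATF4 genes lower and 3 higher, and 73 androgen response genes higher and 23 lower. Ribosomal protein genes were 11 higher and 30 lower.

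**Figure D4:**
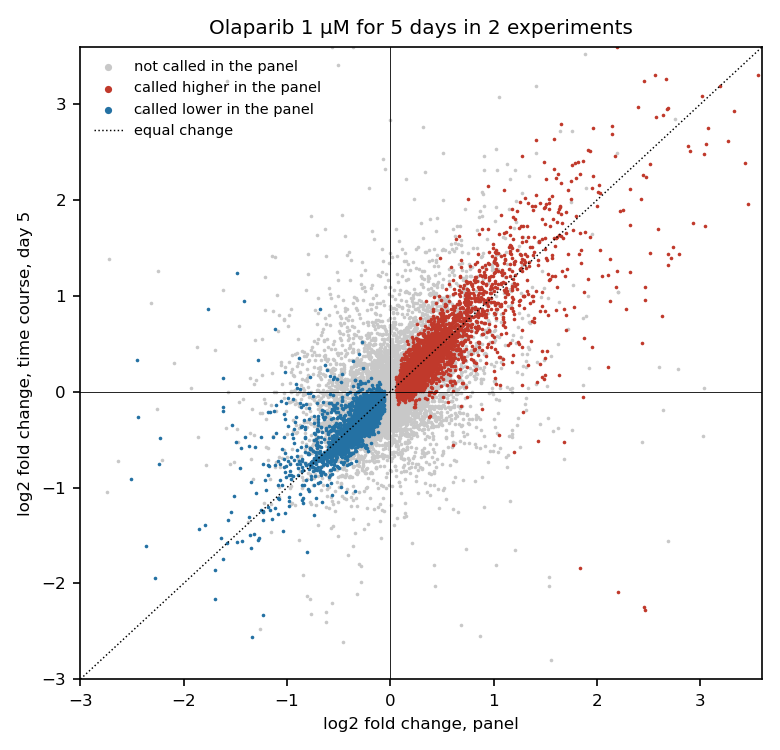
Log2 fold change of olaparib 1 µM against DMSO after 5 days in the panel (x axis) and in the time course (y axis) for genes tested in both, coloured by the panel call, with a dotted line of equal change. The called genes lie mostly in the quadrants of equal sign (96.7%), and 72 genes beyond the axes are not drawn.

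The effect itself differed between the experiments in 377 of 19392 genes (1.94%), tested as an interaction over all 39 libraries. These differences were small, with a median absolute size of 0.23 on the log2 scale, and 11 reached 1. By list, the effect differed in 32 of 118 androgen response genes, with 25 of the differences more negative in the panel and 7 more positive. It differed in 6 of 50 p53 targets, all more negative in the panel, in 9 of 76 mitosis genes and 5 of 59 replication genes, all more positive in the panel, and in 2 of 36 ATF4 genes. SYT4, a synaptotagmin, rose in both, by 0.66 in the panel and by 1.62 in the time course on the log2 scale. FSIP1 fell in the panel, at 5.23, 4.31 and 4.18 CPM under DMSO and 2.13, 2.68 and 2.49 CPM under olaparib, and read 3.19, 3.66 and 3.40 against 3.51, 3.17 and 3.85 CPM in the time course. FSIP1 overlaps the neighbouring gene THBS1 on the genome, so its reads are uncertain. PDE3A, a phosphodiesterase, fell in the panel by a log2 fold change of -0.85 and had one of -0.13 (not called) in the time course. SLITRK3, RGS9 and MET, the hepatocyte growth factor receptor, fell in both and by less in the panel, with MET at -0.67 against -1.15. Without DMSO library A, the panel log2 fold change of RGS9 was -0.22 and was not called. CDKN1A rose by less in the panel (2.18 against 2.46, adjusted p of the difference = 0.00675).

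Talazoparib at 10 nM is another PARPi of the panel, and its comparison with DMSO uses the same DMSO libraries, so only values side by side and the direct contrast are given. The doses differ, so the difference of the compounds and that of the doses cannot be told apart. Olaparib and talazoparib libraries differed in 1557 genes (8.36%), 977 higher (5.25%) and 580 lower (3.11%) under olaparib, with a median absolute log2 difference of 0.157 and 17 genes at 1 or more. Ribosomal protein genes were among them in 57 of 82 cases, all lower under olaparib. Against DMSO, 5 of these genes rose and 31 fell under olaparib, whereas 28 rose and 4 fell under talazoparib. Over all genes tested, talazoparib changed 33.8%, with 18.4% higher and 15.4% lower. The direct contrast gave 54 to 61 genes lower and none higher over 6 settings, a check chosen after the values were seen. With total count scaling the split against DMSO was 1 higher and 60 lower for olaparib and 7 higher and 6 lower for talazoparib.

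The amino acid response also differed, with 13 of 36 ATF4 list members in the direct contrast, 12 of them lower under olaparib. ASNS had log2 fold changes of -1.24 under olaparib and -0.83 under talazoparib (adjusted p of the difference = 0.00108). DDIT4, an mTORC1 inhibitor, read 56.6, 49.5 and 47.5 CPM under DMSO, 56.8, 46.5 and 49.2 CPM under olaparib and 77.2, 82.6 and 74.9 CPM under talazoparib, where it was called higher. Olaparib and DMSO overlapped for this gene and talazoparib lay above both. TNNT1, a troponin, and AS3MT were also lower under olaparib than under talazoparib, with log2 differences of -0.74 and -0.67. H1-4, a linker histone, read 5.53, 7.09 and 7.73 CPM under olaparib and 3.47, 4.17 and 3.69 CPM under talazoparib (log2 difference 0.84). ID1 and ARHGAP11B were higher under olaparib than under talazoparib by 0.72 and 0.67. These 3 genes were not called between olaparib and DMSO. Androgen response genes differed in 27 cases, 25 of them higher under olaparib, and lysosomal genes in 19, with 15 higher. NPC1 had log2 fold changes of 0.71 and 0.43. Mitosis genes differed in 9 of 76, all of them higher under olaparib than under talazoparib, and their counts against DMSO were 75 lower under each drug.

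Olaparib was also added to abiraterone, an ARPi that blocks androgen synthesis through CYP17A1, and the comparison of that combination with abiraterone shares no library with the one above. It called 5436 genes (29.2%), 2691 higher (14.4%) and 2745 lower (14.7%). Of these, 3185 were also called in the same direction without abiraterone, which is 48% of the calls without and 58.6% of the calls with it, and 202 were called in opposite directions. The effect of olaparib differed between the backgrounds in 2386 genes (12.8%), 882 more positive (4.74%) and 1504 more negative (8.08%) with abiraterone. Mitosis genes fell in 75 of 76 on either background, and the effect differed in 9 of them, 8 more negative with abiraterone. The p53 targets rose in 42 of 50 without and in 41 of 50 with abiraterone, and the effect differed in 14, 7 in each direction. The ATF4 list fell in 30 of 36 without and in 29 of 36 with abiraterone, with medians of -0.61 and -0.44, and the effect differed in 13, 11 of them more positive with abiraterone.

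Androgen response genes were 46 higher and 30 lower when olaparib was added to abiraterone, and 40 of 118 had a more negative effect there and 9 a more positive one. FKBP5 had log2 fold changes of 0.40 without and -0.05 with abiraterone (adjusted p of the difference = 1.46e-10). NDRG1 had 1.54 and 0.09 (adjusted p of the difference = 2.84e-06). Glycolysis and hypoxia genes were 2 higher and 12 lower with abiraterone, and 26 of 42 had a more negative effect and none a more positive one. CYP2U1 turned from 0.87 to -0.31, with both called. NF-kB targets were 3 higher and 2 lower with abiraterone, and NFKB2 had 0.73 and 0.06. STING1 had 1.00 and 0.09 (adjusted p of the difference = 0.000353). Ribosomal protein genes went the other way, with 30 higher and 4 lower with abiraterone, and 37 of 82 had a more positive effect there.

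**Figure D5:**
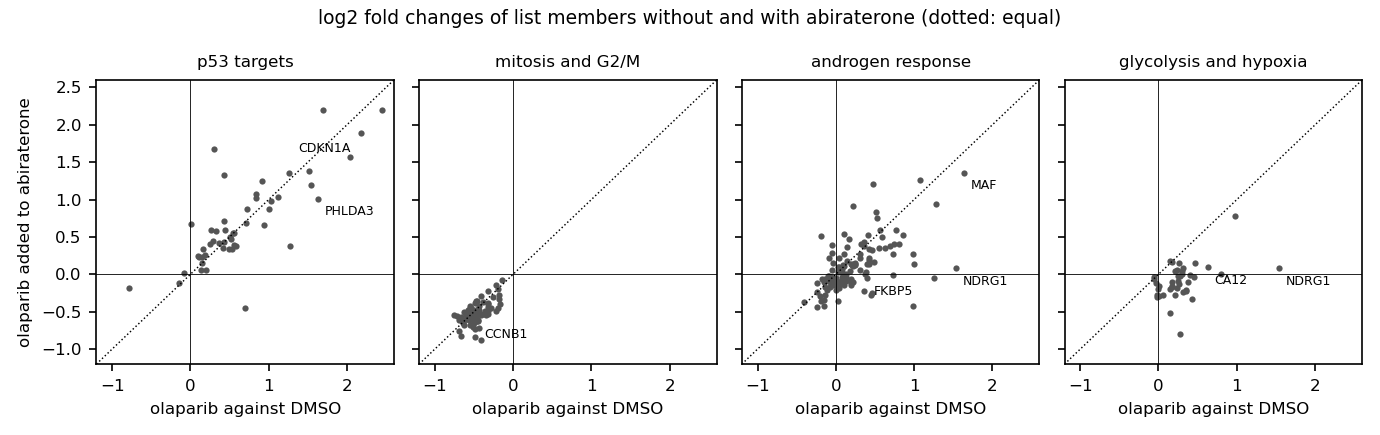
Log2 fold changes of olaparib against DMSO (x axis) and of olaparib added to abiraterone (y axis) for the tested members of 4 lists, with a dotted line of equal change. The p53 targets and mitosis genes lie on both sides of the dotted line, with PHLDA3 at 1.63 and 1.01, and most androgen response and glycolysis genes lie below it, with NDRG1 at 1.54 and 0.09.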

How the data were processed

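RNA of 39 C4-2B libraries was measured, and this account uses mainly the 6 panel libraries of olaparib 1 µM and DMSO. Per the labels and methods, libraries were stranded poly(A) mRNA libraries sequenced on a NovaSeq X Plus, and the authors trimmed reads with Trim Galore, aligned them with STAR and quantified them with Salmon on GRCh38. The authors deposited Salmon's estimated counts (expected counts) of each gene, not normalized and as whole numbers, and how they were rounded is not described. Symbols and coordinates were taken from an earlier GENCODE release on the same build for 42338 of 63187 genes, and genes without a symbol held 0.763 to 0.789% of the counts per library. Genes with near-identical copies or overlapping neighbours are uncertain.

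From these counts, edgeR 4.0.16 (R 4.3.3) gave TMM-scaled counts by library size (CPM), log2 fold changes with standard errors (SE) and quasi-likelihood tests, with genes filtered by group (filterByExpr), robust dispersions and Benjamini-Hochberg adjustment over all genes tested. All 21 panel libraries entered one fit, all 18 time course libraries another and all 39 the test between experiments. A gene was called at an adjusted p under 0.05. Summed marker levels are CPM without TMM. Counts were simulated for 18625 genes in the comparison of olaparib with DMSO, with 50 genes changed at each size. Of those changed by 1.25, 1.5, 2 and 4-fold, 37, 40, 48 and 49 were called, and 6 unchanged genes were. All changed genes had an expected mean of at least 50 counts, so changes at low counts were not tried. Far fewer genes were changed than were called in the data.

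The members and gene lists were chosen with earlier results of these data known. Of 40 lists, 35 are described and 5 are cell type markers. The integrin entries of one list were corrected after its values were seen, and the histone list also takes a few genes outside the histone clusters. Some members of the lists are counted but not reported by name here. Named genes include the 12 largest rises and falls among called protein-coding genes. For these ranks, genes needed treatments without overlap and a mean of 100 counts or more in the higher group. Up to 4 called genes per list were taken with the same count bound but without regard to overlap. The 3 largest differences each way in the contrasts with the time course and talazoparib are named too. Non-overlap was applied to the time course contrast after values were seen. Only part of the genes the rule gives are printed, and ETV4, POLA1, KIF14, GINS2, IARS1 and AARS1 are among those outside it. A further set was named regardless of this rule, with CDKN1A, PARP2, BRCA2, STING1 and MYC among its genes. PARP1, PARG, ATM, ATR and PALB2 are printed although they were not called. Genes named as exceptions to a count were also chosen after their values were seen.

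Promoters come from RefSeq (GRCh38.p14), 250 bases before to 50 after each start. The motifs (9 patterns over 7 lists) were chosen after the list results were seen. The 5 long windows belong to the called members with the largest falls, at least 100 counts, a match and at most 30 annotated untranslated or coding bases in the 200 bases before the start.

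The labels do not say that libraries A, B and C came from separate cultures, so p-values measure only the spread between these samples, which may be technical. Libraries of a group differed by more than sampling noise. The letters were not treated as pairs. Correlations of same-lettered deviations were weak (0.0246, 0.0385 and 0.0278) but above those of unlike letters (-0.0349 to 0.0055), and pairing was not tested. Alternatives were other scalings (RLE size factors, total counts), other filters, DESeq2 1.42.0 with a local fit, a fit of the 6 libraries alone, a replicate block, stricter thresholds and leaving out each library.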

Additional observations from a re-analysis of the deposited data

Results flagged for a closer look

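The effect of olaparib 1 µM at day 5 differed between the panel and the time course in 377 genes, by a test of the difference between experiments. Of the genes named in the report that passed this test, the 3 with the largest differences below 0 were SYT4 (-0.98), FSIP1 (-0.96) and PDE3A (-0.73). These are the panel effect minus the time course effect on the log2 scale. SLITRK3 (0.85), RGS9 (0.67) and MET (0.47) fell by less in the panel. Smaller rises in the panel than in the time course were found for CDKN1A (-0.30), MAF (-0.30), NDRG1 (-0.39), SOX9 (-0.52), B2M (-0.21), CYP2U1 (-0.22), UGT2B28 (-0.31), UGT2B11 (-0.21), ELOVL5 (-0.17), H2BC21 (-0.21), THBS1 (-0.66), FN1 (-0.38) and COL4A5 (-0.26). The fits are joint, so a difference need not equal the subtraction of the separate fold changes.

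The effect of olaparib differed without and with abiraterone in 2386 genes, by the interaction term, given here as the effect with abiraterone minus the effect without. Among the genes with the largest changes of the report, it was more negative with abiraterone for CEL (-1.10), FAXDC2 (-0.82) and ESPN (-1.12), and more positive for RNF152 (1.45), BCAT1 (0.29) and CA8 (1.00). Of p53 targets and apoptosis genes, CDKN1A (-0.29), SPATA18 (-0.46), PHLDA3 (-0.62), BTG2 (-0.35) and RPS27L (-0.28) had a more negative effect and MDM2 (0.15) and PMAIP1 (0.61) a more positive one. Of cycle, repair and PARP genes, PARP10 (-0.28) and CCNB1 (-0.18) were more negative and BLM (0.38), ATM (0.30), CHEK2 (0.25), KNL1 (0.21) and E2F7 (0.47) more positive. Of the amino acid genes named, these were more positive with abiraterone, SLC7A11 (0.46), SLC1A4 (0.41), ATF4 (0.22), PSAT1 (0.42), DDIT3 (0.41) and SARS1 (0.27). Of the androgen response and lineage genes named, those with a more negative effect were TMPRSS2 (-0.45), FKBP5 (-0.46), NDRG1 (-1.45), SOX9 (-0.74) and SPDEF (-0.18). Of the immune and inflammatory genes named, they were STING1 (-0.91), HLA-DMA (-0.55), B2M (-0.32), IL32 (-1.15), NFKB2 (-0.67), BIRC3 (-0.53) and FOSL2 (-0.66). Of the metabolic and lysosomal genes named, they were TM7SF2 (-0.29), NPC1 (-0.41), GALNS (-0.59), ALDOC (-0.79), CA12 (-0.54), CYP4F8 (-0.83), CYP2U1 (-1.18), GSTA1 (-0.61), FTL (-0.28) and ELOVL5 (-0.28), and UGT2B28 (0.59) and NQO1 (0.15) had a more positive one. Other named members of these groups did not pass the test of the difference. The remaining more negative effects among named genes were those of MT-ND5 (-0.26), H2BC21 (-0.32), VIM (-0.50) and FN1 (-0.49), and the remaining more positive ones those of RPL10 (0.17), PDE3A (0.50) and MET (0.52). Each of these differences passed its own test at an adjusted p under 0.05 (edgeR), and no explanation was tested.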

How the results depend on the processing

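Of 590 alternatives for counts, 541 stayed within 1.5 times the reported count and 49 did not. The calls between olaparib and DMSO numbered 6237 to 6714 over other scalings, filters, DESeq2, the 6 libraries alone and the replicate block, and 5647 to 6330 when 1 library was left out. The replicate block gave 6534 calls. Each letter correlated best with its own, though weakly. The block changed no call among the 148 genes for which it was tried. The median log2 fold change of all genes was 0.0154 with TMM and -0.0252 under total count scaling.

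Most moved counts came from a bound of 1 on the absolute log2 fold change, which few small changes reach. It left 502 calls (397 higher and 105 lower), 17 against talazoparib, 355 on abiraterone, 738 in the time course and 11 between experiments. Higher list members were then 12 p53 targets, 1 BCL2 family gene, 6 androgen response genes, 2 steroid metabolism genes, 3 interferon genes, 3 NF-kB genes, 2 immediate early genes, 1 glycolysis gene, 9 drug-metabolising genes, 4 genes of epithelial and mesenchymal state, 2 histone genes, 6 collagens, laminins and integrins, and 0 genes of antigen presentation, fatty acid synthesis, fatty acid oxidation, lysosome, NRF2, nuclear oxidative phosphorylation and mitochondrial mRNA. Lower list members were 7 ATF4 genes, 1 lineage factor, and 0 genes of PARP, homologous recombination, checkpoint, replication, mitosis, cyclins, cholesterol, unfolded protein response, tRNA synthetases, ribosome biogenesis, spliceosome, neuroendocrine, proteasome and ribosomal protein lists. An adjusted p under 0.01 left 4 lower PARP genes, 11 higher histone genes, 12 lower proteasome genes and 20 lower ribosomal protein genes. Total count scaling gave 5 higher fatty acid synthesis genes and 60 lower ribosomal protein genes. Antigen presentation held 6 to 11 higher genes with 1 library left out, the lowest without olaparib library A.

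Log2 fold changes around 0 changed sign without a call. PARG gave -0.029 under total count scaling, -0.0011 with the CPM filter, -0.0039 with the 6 libraries alone, and -0.014 to 0.042 with 1 library left out. ARHGAP11B gave -0.010 under total count scaling. With 1 library left out, the ranges were -0.10 to 0.018 for ATR, -0.11 to 0.069 for DDIT4, -0.095 to 0.25 for H1-4, -0.012 to 0.21 for ID1 and -0.057 to 0.11 for ARHGAP11B. Between olaparib and DMSO, TNNT1 (log2 fold change -0.52, adjusted p = 0.0212) lost its call with the 6 libraries alone and without DMSO library B or olaparib library B or C (adjusted p 0.0574 to 0.162). RGS9 lost its call without a filter and without DMSO library A or olaparib library C (0.054 to 0.2). The share of genes called was lowest at low abundance, and no other depth was tried.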
